A study of Physcomitrium patens with 4 samples.

Results

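Glutathione S-transferases couple the tripeptide glutathione to reactive compounds, and plants keep several classes of them for detoxification and for the handling of oxidised products. The phi class is found in plants and fungi, and its Arabidopsis members GSTF9 and GSTF10 are among the abundant soluble transferases of that plant. A related group, the glutathionyl-hydroquinone reductases, is known from bacteria and fungi to remove glutathione from conjugated hydroquinones. The 3 genes described here were assigned to these groups by their Arabidopsis matches and orthologous groups. They were chosen by name, with their tag counts already known, as glutathione S-transferase genes with many tags after 72 h of protoplast culture. They are 3 of the 25 genes of the moss Physcomitrium patens annotated as glutathione S-transferases or dehydroascorbate reductases, in a table of 18800 genes.

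Gene expression was profiled by digital gene expression, in which 1 short tag at a fixed cutting site stands for each transcript, so that a tag count does not scale with transcript length. Wild-type protonemata, the filamentous stage of the moss, were digested to protoplasts, which were profiled when freshly isolated (0 h) and after 24, 48 and 72 h in culture, as 1 library of pooled RNA per time point. All cultured cells were held in liquid medium with mannitol, first in darkness, up to 24 h, and then in a daily cycle of light and dark. Between 0 and 24 h, culture time, the move from wall digestion into culture medium and the dark culture therefore changed together and cannot be told apart. Culture time and light likewise changed together between 24 and 48 h and cannot be told apart. Each library averages over all the cells it was made from, and fewer cells of a type and less RNA per cell cannot be told apart either.

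The libraries held 2247746, 1750184, 1964182 and 2445814 tags on genes at 0, 24, 48 and 72 h. The 35 genes of the light-harvesting antenna, which green protonemal cells express, summed to 12100, 3870, 58500 and 13000 tags per 1000000 in that order. The 14 genes of the RuBisCO small subunit summed to 626, 268, 8630 and 100. The paper describes fresh protoplasts as green, and the sums went different ways at 72 h against 0 h. They are therefore not read as a measure of how many cells were green. At least 1 and at most 3 of the antenna genes had no tags in a library, and between 1 and 6 of the small subunit genes. The library of 72 h stood apart in that its 10 genes with the most tags, which include all 3 of the genes described here, held 24.2% of its tags, against 4.39% to 7.90% for the top 10 genes of each other library. It had also lost a far larger part of its raw tags to adaptor sequence than the others, and the part of that loss in the results was not tested. No spread between cultures was measured, because each time point had 1 library. Every interval below is a 95% interval that covers counting error only.

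GSTF9 (Pp1s66_172V6, whose best Arabidopsis match is the phi class transferase GSTF9) had 26187 tags in fresh protoplasts, 5006 after 24 h, 3319 after 48 h and 236061 after 72 h. This gives, per 1000000 tags on genes, 11700 (95% Clopper-Pearson interval 11500 to 11800), 2860 (2780 to 2940), 1690 (1630 to 1750) and 96500 (96100 to 96900). It was the gene with the most tags both in fresh protoplasts and at 72 h, where it alone took 9.65% (9.61 to 9.69) of the library. Between these times it stood in place 13 at 24 h and place 65 at 48 h.

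GSTF10 (Pp1s75_107V6, matched to the Arabidopsis phi class transferase GSTF10) had 2124 tags in fresh protoplasts, 393 after 24 h, 194 after 48 h and 20690 after 72 h, or 945 (905 to 986), 225 (203 to 248), 98.8 (85.4 to 114) and 8460 (8340 to 8570) tags per 1000000. The gene thus ran through the same order of levels as GSTF9, about an order of magnitude lower, from place 99 among all genes at 0 h through places 753 and 1798 to place 7 at 72 h.

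Pp1s126_26V6 had 2569 tags in fresh protoplasts, 1360 after 24 h, 675 after 48 h and 23218 after 72 h, or 1140 (1100 to 1190), 777 (736 to 819), 344 (318 to 371) and 9490 (9370 to 9620) tags per 1000000. It is annotated as a glutathione S-transferase family protein, and its Arabidopsis match is AT4G19880. Its orthologous group was taken here as that of the glutathionyl-hydroquinone reductases, a name that its annotation does not give. The files give it the C-terminal transferase domain alone, whereas GSTF9 and GSTF10 carry the N-terminal and the C-terminal domain and share 1 orthologous group. It ranked in places 67, 114, 510 and 6 in the order of time.

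All 3 genes had their highest level at 72 h, their next highest at 0 h, a lower one at 24 h and their lowest at 48 h. The counting intervals of neighbouring levels did not overlap within any of the 3 genes. That order was not rare, since 377 genes (5.63%) had it among the 6700 with 100 tags or more in a library, which made it number 4 of the 24 possible orders by number of genes. Among the 315 genes that reached 1000 tags at 72 h, 65 had it. Summed, the 3 genes took 1.37%, 0.386%, 0.213% and 11.4% of the tags at 0, 24, 48 and 72 h. The antenna and small subunit sums given above were highest at 48 h, where the 3 genes were lowest, and their part in these levels was not tested.

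**Figure D1:**
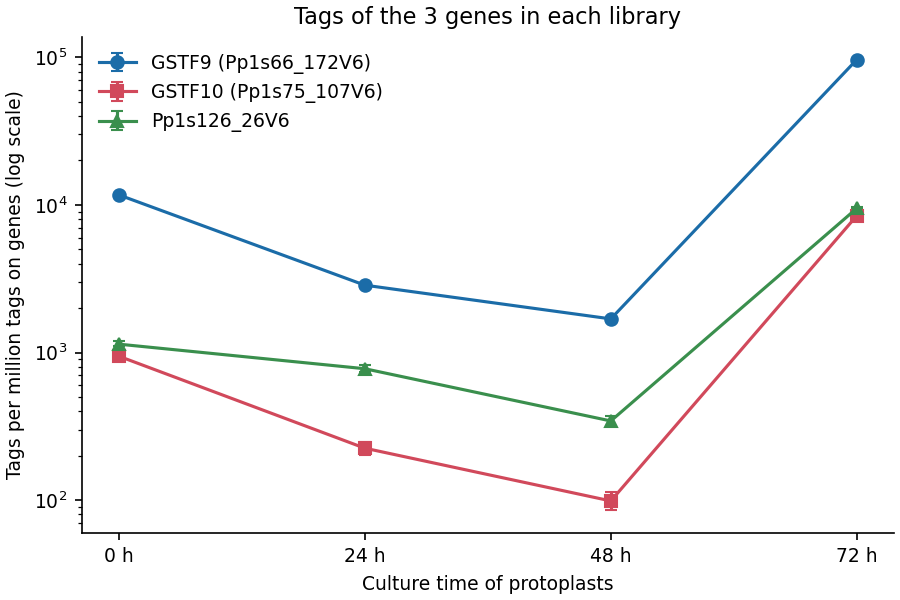
Tags per 1000000 tags on genes (log scale) of GSTF9, GSTF10 and Pp1s126_26V6 against culture time, with 1 library per time point. Points are levels, bars are 95% counting intervals, most of them smaller than the points, and lines only join the points. GSTF9 lies highest throughout, and each of the 3 genes is lowest at 48 h and highest at 72 h.

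A change between 2 libraries is given as the ratio of their tags after TMM scaling of library size (trimmed mean of M-values). A gene was said to rise or fall when that ratio reached 4-fold and at least 100 tags were counted in the library where it was higher. At 24 h against 0 h, which covers the dark culture in which new walls form, GSTF9 had 5006 tags against 26187 and fell 4.60-fold (4.46 to 4.74). GSTF10 had 393 tags against 2124 and fell 4.75-fold (4.27 to 5.31). Pp1s126_26V6 did not pass the fold, with a level 1.66-fold lower (1.55 to 1.78) at 24 h. Of the 15077 genes compared, 4.94% fell by this rule and 2.44% rose. The fall of GSTF9 was close to the limit, and it measured 3.99-fold, under the limit of 4, when library sizes were total tags without the 10 genes that lead at 72 h.

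At 48 h against 24 h, when the cells came into light and took up a polar shape, none of the 3 genes passed the fold, while 6.88% of 14312 genes fell and 7.50% rose. GSTF9 was 1.16-fold lower at 48 h (1.11 to 1.21), GSTF10 1.56-fold lower (1.31 to 1.86) and Pp1s126_26V6 1.55-fold lower (1.41 to 1.70). With total tags as library size the same values were 1.69, 2.27 and 2.26, still inside the fold, and this scaling moved the median log2 ratio of all genes by -0.54. Over both steps together, 48 h against 0 h, GSTF9 fell 5.33-fold (5.14 to 5.53) and GSTF10 fell 7.40-fold (6.38 to 8.61). Pp1s126_26V6 was 2.57-fold lower (2.36 to 2.80), and 9.56% of 14432 genes fell and 6.51% rose over the same interval.

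At 72 h against 48 h, by which time the cells had divided, all 3 genes rose. GSTF9 had 236061 tags at 72 h against 3319 at 48 h and was 75.2-fold higher (72.7 to 77.8). GSTF10 had 20690 against 194 and was 113-fold higher (97.9 to 131), and Pp1s126_26V6 had 23218 against 675 and was 36.4-fold higher (33.7 to 39.3). Among the 4534 genes that reached 100 tags in 1 of these libraries they had places 46, 23 and 143 by ratio, counted from the highest. In this comparison 7.66% of 12648 genes rose and 7.12% fell, and since the 3 genes were chosen for it, nothing is read from their number. Over the 5 library sizes tried the ratios ran from 57.1 to 75.2 for GSTF9, from 85.6 to 113 for GSTF10 and from 27.6 to 36.4 for Pp1s126_26V6.

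The level at 72 h was also above that of fresh protoplasts. GSTF9 was 14.1-fold higher at 72 h than at 0 h (13.9 to 14.3), GSTF10 15.2-fold (14.6 to 15.9) and Pp1s126_26V6 14.1-fold (13.6 to 14.7), in a comparison where 6.09% of 14375 genes rose and 8.02% fell. These sizes depended on the library size used. With total tags they were 8.28, 8.95 and 8.31, and that scaling lowered the log2 ratio of all genes by a median of 0.75, from -0.34 with TMM. Against 24 h the 3 genes were 64.9-fold (63.1 to 66.7), 72.4-fold (65.6 to 80.3) and 23.5-fold (22.2 to 24.8) higher at 72 h, and 7.07% of 14225 genes rose and 5.66% fell. With total tags these were 33.7, 37.7 and 12.2.

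**Figure D2:**
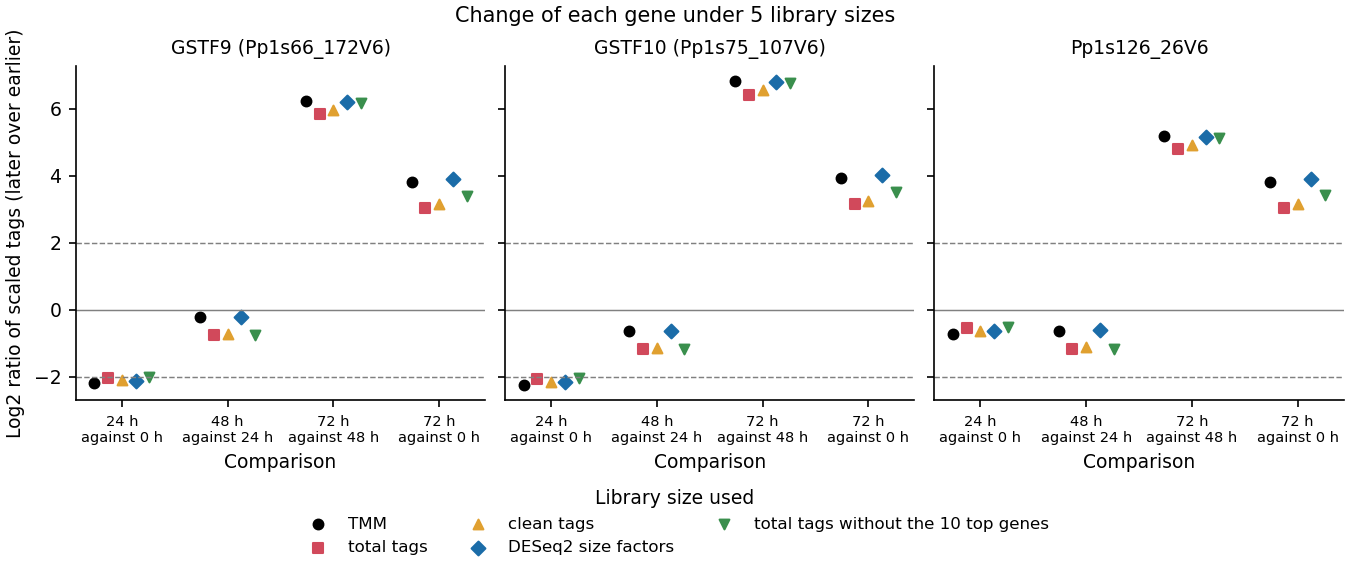
Log2 ratio of scaled tags of each of the 3 genes (later over earlier time point) in 4 comparisons, under 5 choices of library size, shown by symbol. Dashed lines mark the 4-fold limit, a log2 ratio of 2 or -2. At 72 h all points of all 3 genes lie above the upper line, and at 24 h against 0 h the points of GSTF9 and GSTF10 lie at or just under the lower line.

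A ratio of 2 genes within a library does not depend on the library size. GSTF9 had 12.3 tags for each tag of GSTF10 at 0 h (11.8 to 12.9), 12.7 at 24 h (11.5 to 14.2), 17.1 at 48 h (14.8 to 19.9) and 11.4 at 72 h (11.2 to 11.6). The proportion of these phi class genes thus changed little beside their levels, and its change at 72 h against 0 h was 0.925-fold (0.883 to 0.969). Relative to Pp1s126_26V6 the picture differed. GSTF9 had 10.2 tags for each of its tags at 0 h (9.79 to 10.6), 3.68 at 24 h (3.47 to 3.91), 4.92 at 48 h (4.53 to 5.35) and 10.2 at 72 h (10 to 10.3).

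Pp1s126_26V6 therefore differed less than GSTF9 and GSTF10 between 24 h and 0 h, and less between 72 h and 48 h. Its ratio to GSTF10 was 1.21 at 0 h (1.14 to 1.28), 3.46 at 24 h (3.09 to 3.88), 3.48 at 48 h (2.96 to 4.10) and 1.12 at 72 h (1.10 to 1.14). Between 24 h and 0 h this ratio differed 2.86-fold (2.52 to 3.25), and between 72 h and 48 h 0.323-fold (0.275 to 0.379). At 72 h against 0 h the ratio of GSTF9 to Pp1s126_26V6 differed 0.997-fold (0.956 to 1.04), so that the 3 genes stood at 72 h in nearly the proportions they had in fresh protoplasts.

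**Figure D3:**
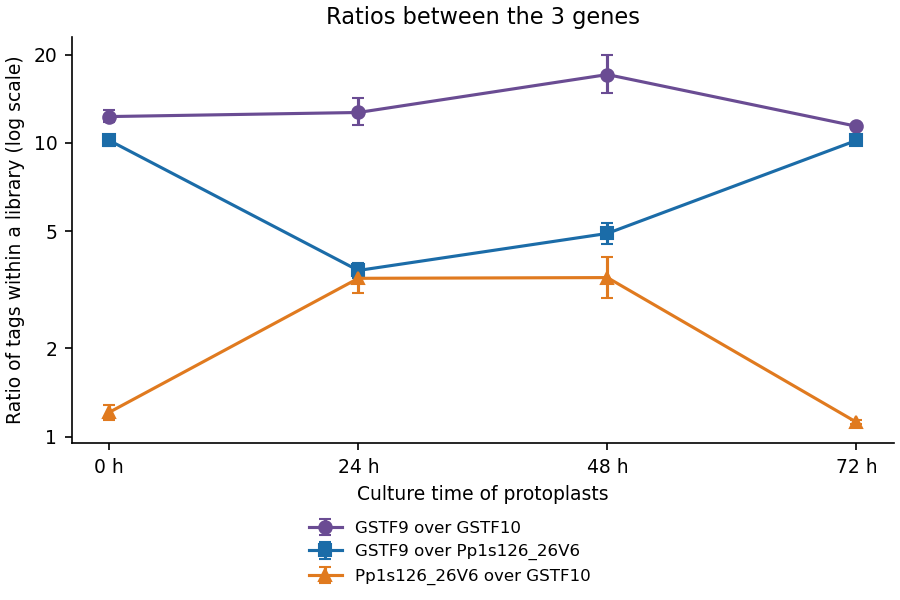
Ratio of the tags of 2 genes within each library (log scale) against culture time, for GSTF9 over GSTF10, GSTF9 over Pp1s126_26V6 and Pp1s126_26V6 over GSTF10, with bars for 95% counting intervals and lines that only join the points. The ratio of GSTF9 to Pp1s126_26V6 is 10.2 at both 0 h and 72 h and 3.68 and 4.92 between them, while that of GSTF9 to GSTF10 stays between 11.4 and 17.1.

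Within the family of 25 genes the tags were held by few genes, and by different ones with time. The family had 19400 tags per 1000000 at 0 h (19300 to 19600), 10700 at 24 h (10600 to 10900), 5700 at 48 h (5600 to 5810) and 124000 at 72 h (123000 to 124000). The 3 genes made up 70.6%, 35.9%, 37.4% and 92.5% of these tags in the order of time, and GSTF9 alone 59.9%, 26.6%, 29.6% and 78.0%. The other 22 genes together had 5710 (5610 to 5810), 6880 (6760 to 7010), 3570 (3490 to 3650) and 9270 (9150 to 9390) tags per 1000000, so that their sum was largest at 72 h as well, by a far smaller margin.

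At 24 h against 0 h, 2 of 22 genes rose (3 genes with under 10 tags in the pair were left out) and 2 fell, those being GSTF9 and GSTF10, where 2.44% of all genes rose and 4.94% fell. The median log2 ratio was -0.36 for the family, 0.01 without the 3 genes and -0.08 for all genes. Of the 19 genes compared besides the 3, 0 fell, a share that 19 genes cannot tell from the 4.94% of all genes. At 48 h against 24 h 0 rose and 1 fell of 20 (7.50% and 6.88% of all genes), with a median of -0.63, and -0.30 for all genes. At 72 h against 48 h 7 rose and 1 fell of 22 (7.66% and 7.12% of all genes), where the 3 genes are among the 7 that rose, with a median of 1.77 and 0.01 for all genes. Of these 22 genes, 12 had the 100 tags that a rise or fall requires, against 4534 of all 12648, so the shares have unlike bases. Without the 3 genes 4 of 19 rose and 1 fell, with a median of 1.25. At 72 h against 0 h 6 rose and 0 fell of 22 (6.09% and 8.02% of all genes), with a median of 0.98 and -0.34 for all genes, and 3 of 19 rose without the 3 genes, with a median of 0.91. With total tags, clean tags or total tags without the top genes as library size, 5 of the 22 rose in this last comparison. In it 12 of the 22 had 100 tags, against 5540 of all 14375. At 24 h against 0 h 13 of 22 had them (5514 of all 15077), and at 48 h against 24 h 13 of 20 (5131 of all 14312). Another 14 genes have a transferase domain but another description. At 72 h against 48 h 0 of them rose and 2 fell of 10 compared, with a median of -0.40. The family median thus rests on a list drawn by description. 

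The phi class comprised 9 genes, of which 4 have the match GSTF9 and 3 the match GSTF10. The authors removed tags that fit more than 1 gene, so that close copies may have lost tags and the split of counts between them is uncertain. The next most abundant copy, Pp1s26_72V6 (match GSTF9), had 6632, 5866, 3801 and 8542 tags at 0, 24, 48 and 72 h and a level 2.38-fold higher (2.29 to 2.47) at 72 h than at 48 h, inside the fold. At 24 and 48 h it had more tags than Pp1s66_172V6, and at 0 and 72 h fewer. Pp1s83_192V6 (match GSTF10) had 47.6, 174, 48.4 and 37.2 tags per 1000000, highest at 24 h, where Pp1s75_107V6 was low, and its ratio at 72 h against 48 h was 1.01 (0.751 to 1.36). GSTF8 (Pp1s339_37V6), matched to a phi class gene of Arabidopsis, had 3136, 3512, 913 and 9860 tags. It rose 11.4-fold (10.7 to 12.2) at 72 h against 48 h and was 4.92-fold higher (4.73 to 5.12) than at 0 h. The last value depended on the library size, and was 2.89 with total tags, 3.09 with clean tags and 3.72 with total tags without the top genes, all under the limit of 4-fold. The other 4 phi class genes had fewer than 100 tags in every library. Without GSTF9 and GSTF10 the class summed to 4440, 5550, 2450 and 7580 tags per 1000000.

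Outside the phi class, GSTZ1 (Pp1s355_45V6), whose zeta class enzymes act in tyrosine breakdown, had 127, 142, 12 and 242 tags. It fell 9.09-fold (5.04 to 18.0) at 48 h against 24 h and rose 21.3-fold (12.0 to 41.8) at 72 h against 48 h. GSTL2 (Pp1s145_161V6), of the lambda class, had 13, 114, 25 and 10 tags and rose 9.97-fold (5.60 to 19.3) at 24 h against 0 h. GSTT1 (Pp1s231_10V6), of the theta class, had 47, 76, 100 and 19 tags and was the 1 family gene that fell at 72 h against 48 h, 4.98-fold (3.03 to 8.61). The other theta gene, also matched to GSTT1 (Pp1s207_127V6), had 32, 73, 2 and 40 tags. Its ratio in that comparison was 21.1 (5.48 to 181), with too few tags to count as a rise. The levels of these genes were thus highest at different times.

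Another 5 genes share the Arabidopsis match AT1G77290, and 3 of them had at least 100 tags in a library. Pp1s84_136V6 had 85, 163, 71 and 524 tags and rose 7.80-fold (6.08 to 10.1) at 72 h against 48 h. Pp1s65_130V6 had 26, 7, 14 and 139 tags and rose 10.5-fold (6.05 to 19.7), and both were also past the fold at 72 h against 0 h, 9.65-fold (7.66 to 12.3) and 8.37-fold (5.47 to 13.3) higher. Pp1s34_56V6 had 1475, 676, 657 and 1776 tags, with a ratio of 2.86 (2.61 to 3.13) at 72 h against 48 h. Of a smaller pair of genes matched to AT5G42150, Pp1s71_353V6 had 130, 30, 67 and 64 tags and a ratio of 1.01 (0.706 to 1.44) in that comparison. The only other gene in the orthologous group of Pp1s126_26V6, Pp1s348_23V6, had 8, 2, 3 and 13 tags.

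The dehydroascorbate reductases, which use glutathione to regenerate ascorbate, showed other profiles. DHAR3 (Pp1s12_401V6) had 851, 455, 1004 and 1192 tags and a ratio of 1.26 (1.15 to 1.37) at 72 h against 48 h. Pp1s271_8V6 (match DHAR2) had 0, 538, 195 and 83 tags. It was at least 204-fold higher at 24 h than at 0 h, taking 3 tags as the most that a count of 0 allows (165-fold at the lower end of the counting interval), and 2.22-fold lower (1.71 to 2.91) at 72 h than at 48 h.

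**Figure D4:**
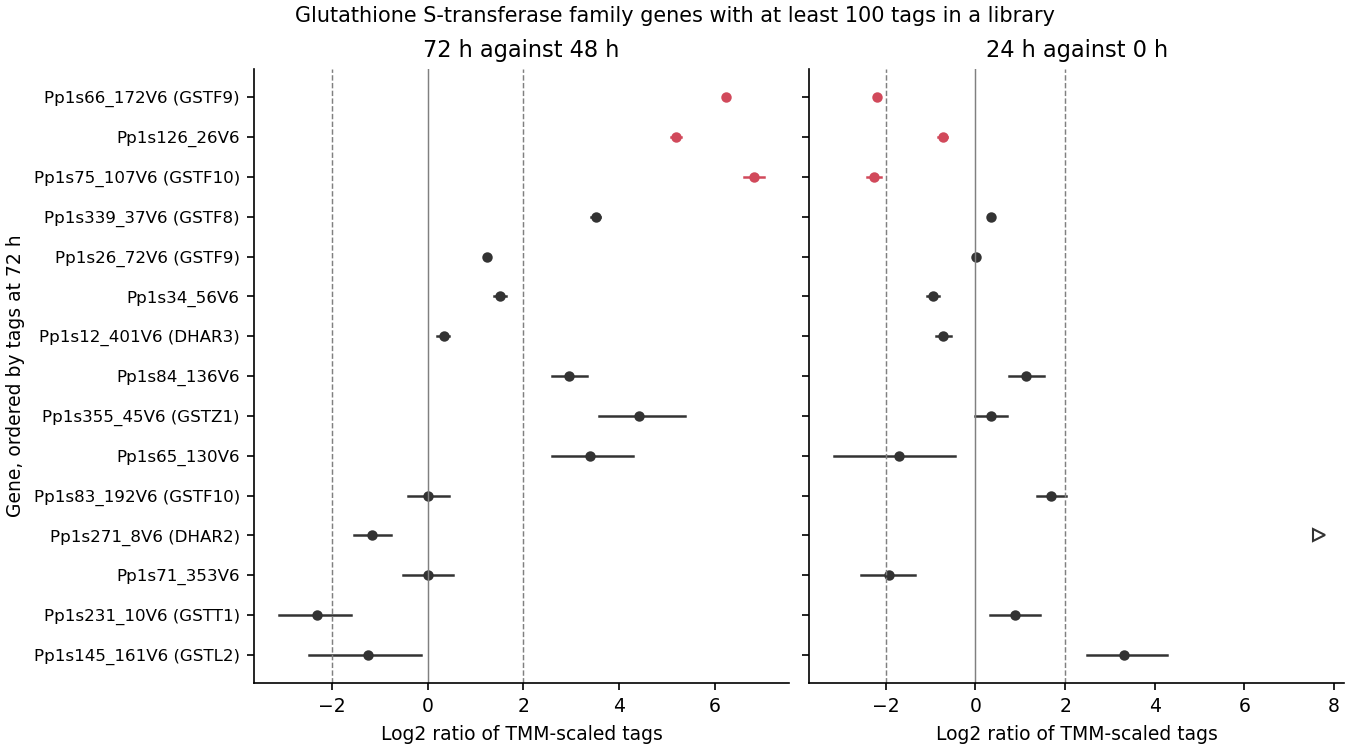
Log2 ratio of TMM-scaled tags at 72 h against 48 h (left) and 24 h against 0 h (right) for the 15 family genes with at least 100 tags in a library, ordered by tags at 72 h, with 95% counting intervals. Red marks GSTF9, GSTF10 and Pp1s126_26V6, dashed lines mark 4-fold, and the open triangle is the lower bound of Pp1s271_8V6, which had 0 tags at 0 h. At 72 h against 48 h the 3 red points lie farthest to the right, and at 24 h against 0 h those of GSTF9 and GSTF10 lie left of the lower line.

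Lists of other genes around glutathione are given as counts of rises and falls, beside the shares of all genes: 2.44% rose and 4.94% fell at 24 h against 0 h, 7.50% and 6.88% at 48 h against 24 h, 7.66% and 7.12% at 72 h against 48 h, and 6.09% and 8.02% at 72 h against 0 h. Most lists are so short that 1 or 2 genes make the difference. A rise or fall also requires 100 tags, which 4534 of the 12648 genes had at 72 h against 48 h. Where a list holds a larger part of such genes, its counts and the shares of all genes have unlike bases. Of the genes for glutathione synthesis, 2 of 3 compared fell at 24 h against 0 h (4.94% of all genes), and 1 of 4 rose at 72 h against 48 h (7.66% of all genes). GSH1 (Pp1s479_14V6), glutamate-cysteine ligase, which makes the first bond of glutathione, had 2175, 176, 31 and 822 tags at 0, 24, 48 and 72 h. It fell 10.9-fold (9.32 to 12.7) at 24 h against 0 h and rose 28.0-fold (19.6 to 41.5) at 72 h against 48 h. Its level at 72 h was 1.69-fold lower (1.56 to 1.83) than at 0 h, where the 3 transferase genes were higher. In the list 0 rose and 2 fell of 3 genes at 24 h against 0 h, 0 and 1 of 4 at 48 h against 24 h, 1 and 0 of 4 at 72 h against 48 h, and 0 and 0 of 4 at 72 h against 0 h.

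Glutathione peroxidases, which in plants reduce peroxides largely with thioredoxin, comprised 2 genes. GPX6 (Pp1s98_2V6) had 2007, 717, 494 and 9175 tags, with the highest level at 72 h and the next highest at 0 h as in the 3 genes, and rose 19.6-fold (17.9 to 21.5) at 72 h against 48 h and 7.15-fold (6.82 to 7.51) against 0 h. It was the 1 gene that rose at 72 h against 48 h, while 1 gene of the list rose at 48 h against 24 h and none passed the fold at 24 h against 0 h. Of the 13 genes for glutathione reductase and the ascorbate cycle, 1 rose and 1 fell at 72 h against 48 h among 11 compared (7.66% and 7.12% of all genes). Of these 11 genes, 9 had the 100 tags that a rise or fall requires. Glutathione reductase GR1 (Pp1s116_56V6), which returns oxidised glutathione to its reduced form, had 528, 213, 57 and 1113 tags and rose 20.6-fold (15.8 to 27.4). A second glutathione reductase gene, GR (Pp1s13_127V6), went the other way, with 148, 174, 258 and 177 tags and a ratio of 0.725 (0.596 to 0.882). APX4 (Pp1s30_255V6), matched to a chloroplast protein related to ascorbate peroxidase, had 101, 40, 633 and 57 tags and fell 10.5-fold (8.0 to 14.0). In this list 0 rose and 1 fell of 12 at 24 h against 0 h, 1 and 0 of 12 at 48 h against 24 h, and 0 and 0 of 11 at 72 h against 0 h.

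Transporters of the multidrug resistance-associated type, which move glutathione conjugates into the vacuole, gave the 3 rises in the list of export and breakdown, of 11 genes compared at 72 h against 48 h, where 7.66% of all genes rose. MRP2 (Pp1s352_50V6) had 1661, 211, 160 and 1316 tags, fell 6.92-fold (5.99 to 8.03) at 24 h against 0 h and rose 8.69-fold (7.37 to 10.3) at 72 h against 48 h. MRP12 (Pp1s402_25V6) had 587, 444, 34 and 430 tags and rose 13.4-fold (9.42 to 19.6), and MRP10 (Pp1s122_170V6) had 409, 61, 9 and 449 tags and rose 52.7-fold (27.5 to 116). The levels of these 3 genes at 72 h were within 1.72-fold of those at 0 h. The list had 0 rises and 2 falls of 14 at 24 h against 0 h, 0 and 1 of 12 at 48 h against 24 h, 3 and 0 of 11 at 72 h against 48 h, and 0 and 1 of 12 at 72 h against 0 h, and it holds 14 genes in all.

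Of the 24 glyoxalase and aldehyde genes, 2 rose and 2 fell of 21 at 72 h against 48 h (7.66% and 7.12% of all genes). Of these 21 genes, 15 had the 100 tags that a rise or fall requires. HOT5 (Pp1s506_15V6), matched to the reductase of S-nitrosoglutathione, had 92, 18, 2 and 1024 tags and a ratio of 541 (149 to 4480), and it was 17.4-fold higher (14.1 to 21.8) than at 0 h. The ratio of 541 rests on 2 tags at 48 h. Other genes matched to HOT5 stayed inside the fold, with ratios of 1.32 (Pp1s65_226V6), 1.88 (Pp1s142_105V6) and 2.13 (Pp1s37_37V6). Pp1s72_285V6 had 363, 277, 38 and 352 tags and rose 9.79-fold (7.0 to 14.1). Pp1s182_93V6 had 46, 524, 1797 and 112 tags and fell 15.2-fold (12.5 to 18.5), and Pp1s323_51V6 had 82, 41, 1502 and 6 tags and fell 237-fold (109 to 646), so that both were highest when the 3 transferase genes were lowest. At 24 h against 0 h 2 rose and 0 fell of 21, at 48 h against 24 h 3 and 2 of 21, and at 72 h against 0 h 2 and 0 of 20.

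Sulfate assimilation and cysteine synthesis, which supply the thiol of glutathione, had 3 rises and 2 falls of 12 genes at 72 h against 48 h (7.66% and 7.12% of all genes). Of these 12 genes, 7 had the 100 tags that a rise or fall requires. Sulfite reductase SIR (Pp1s47_171V6) had 1462, 130, 52 and 822 tags, fell 9.89-fold (8.26 to 11.9) at 24 h against 0 h and rose 16.7-fold (12.6 to 22.6) at 72 h against 48 h. SERAT2;2 (Pp1s65_270V6), a serine acetyltransferase, had 328, 279, 121 and 773 tags and rose 6.75-fold (5.57 to 8.25). A second sulfite reductase gene (Pp1s160_137V6) had 92, 104, 395 and 43 tags and fell 8.69-fold (6.33 to 12.2), and the cysteine synthase gene OASB (Pp1s17_59V6) had 745, 969, 2180 and 400 tags and fell 5.16-fold (4.63 to 5.75). The list counted 0 rises and 4 falls of 14 at 24 h against 0 h, 2 and 2 of 14 at 48 h against 24 h, and 0 and 1 of 13 at 72 h against 0 h.

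The oxidative pentose phosphate pathway, a source of the NADPH that glutathione reductase uses, had 2 rises and 0 falls of 9 genes at 72 h against 48 h (7.66% and 7.12% of all genes). Of these 9 genes, 5 had the 100 tags that a rise or fall requires. Both genes that rose are glucose-6-phosphate dehydrogenases, the entry enzyme of that pathway. G6PD6 (Pp1s192_39V6) had 239, 234, 6 and 368 tags and rose 64.8-fold (29.5 to 178), and G6PD2 (Pp1s51_249V6) had 48, 26, 6 and 110 tags and rose 19.4-fold (8.62 to 54.0). Other genes matched to G6PD2 included Pp1s338_65V6, with a ratio of 1.65 (1.11 to 2.48), and Pp1s36_114V6, with 0.817 (0.506 to 1.31). Rises and falls in this list were 0 and 1 of 13 at 24 h against 0 h, 0 and 2 of 12 at 48 h against 24 h, and 0 and 1 of 12 at 72 h against 0 h.

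Superoxide dismutases and catalases, which remove superoxide and hydrogen peroxide, had 3 rises and 0 falls of 11 genes at 72 h against 48 h (7.66% and 7.12% of all genes). Of these 11 genes, 7 had the 100 tags that a rise or fall requires. CSD1 (Pp1s44_277V6), a copper/zinc superoxide dismutase, had 1879, 4628, 956 and 30142 tags, rose 33.3-fold (31.3 to 35.6) and was 25.1-fold higher (24.0 to 26.3) than at 0 h. In contrast to the 3 transferase genes it had more tags at 24 h than at 0 h. CAT2 (Pp1s422_8V6) had 2930, 1343, 257 and 1373 tags and rose 5.65-fold (4.94 to 6.48), and CAT1 (Pp1s3_465V6) had 85, 685, 25 and 280 tags and rose 11.8-fold (7.85 to 18.6). Other genes matched to CSD1 (Pp1s18_84V6) and CAT2 (Pp1s3_353V6) stayed inside the fold, with ratios of 2.18 (1.94 to 2.44) and 1.29 (1.17 to 1.41). There were 1 rise and 0 falls of 12 at 24 h against 0 h, 1 and 3 of 12 at 48 h against 24 h, and 2 and 0 of 12 at 72 h against 0 h.

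In the medians at 72 h against 48 h, the transferase family stood at 1.77 on the log2 scale, and at 1.25 without the 3 genes, which were chosen for their tags at 72 h. Glutathione synthesis stood at 1.49, glutathione peroxidases at 1.30, superoxide dismutases and catalases at 1.07, NADPH supply at 0.82, export at 0.62, sulfate assimilation at 0.58, glyoxalases at 0.24 and glutathione reductase with the ascorbate cycle at -0.74, beside 0.01 for all genes. Most genes of each list did not pass the fold, except for 1 of 2 in the peroxidases.

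**Figure D5:**
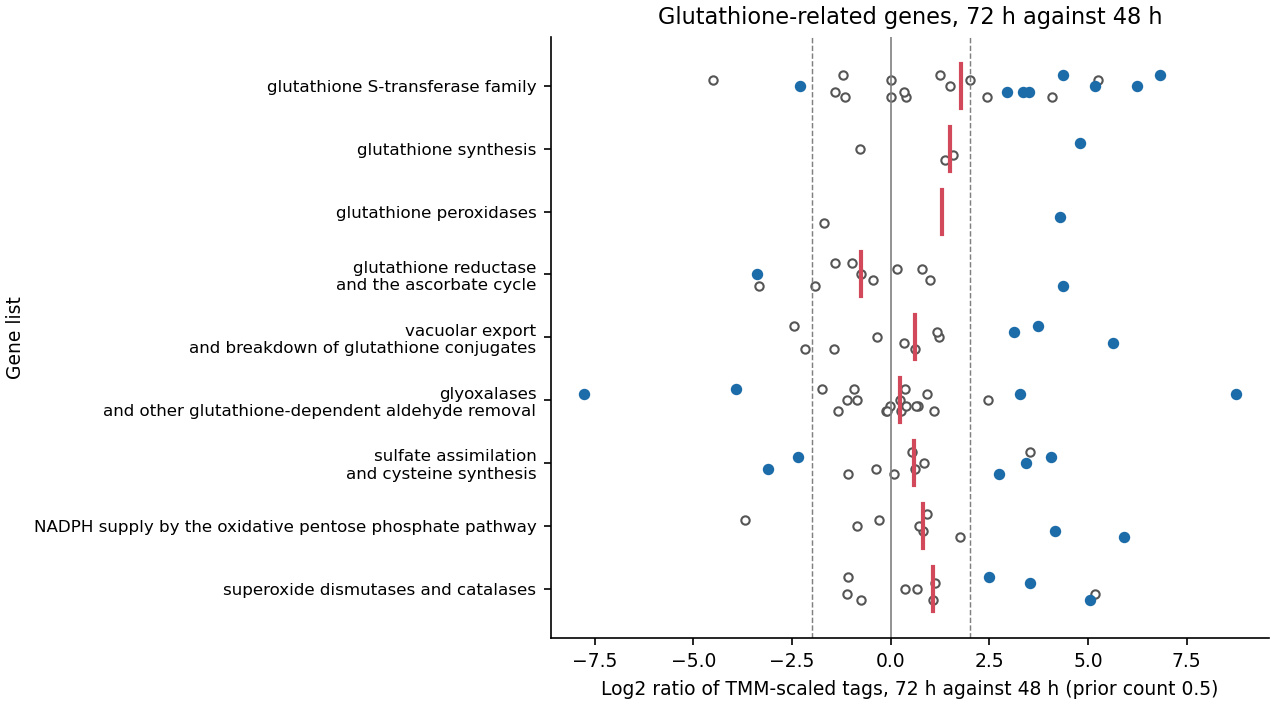
Log2 ratio of TMM-scaled tags at 72 h against 48 h for every gene of 9 lists with at least 10 tags in the pair (1 point per gene, spread vertically only to keep points apart, with a prior count of 0.5). Filled points passed the 4-fold rule with at least 100 tags, open points did not, red bars are list medians and dashed lines mark 4-fold. The transferase family has 7 filled points on the right and a median of 1.77, which is 1.25 without the 3 genes chosen for their tags at 72 h and then under that of glutathione synthesis at 1.49, while glutathione reductase and the ascorbate cycle have a median of -0.74.

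Genes nearest in profile were found over the 4 libraries, by the Euclidean distance between mean-centred log2 levels among 6700 genes. GSTF10 was the nearest gene to GSTF9, at 0.44, and GSTF9 was second nearest to GSTF10 after the unannotated Pp1s66_60V6 at 0.43, a gene with only 30, 5, 2 and 205 tags. Both shared an ABC transporter family gene (Pp1s397_2V6, with 92, 15, 8 and 504 tags), a peroxidase superfamily gene (Pp1s37_275V6, with 54, 18, 7 and 456 tags) and lipoamide dehydrogenase LPD1 (Pp1s35_94V6, with 382, 44, 45 and 1513 tags), the flavoprotein of plastid pyruvate dehydrogenase, at distances of 0.55, 0.74 and 0.97 from GSTF9 and 0.69, 0.87 and 1.28 from GSTF10.

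Pp1s126_26V6 had other neighbours with the prior count of 0.5 used here. Nearest were a gene with an SRP72 RNA-binding domain (Pp1s234_73V6, 76, 49, 31 and 954 tags) at 0.47 and a selenium binding gene (Pp1s279_63V6, 16, 12, 6 and 165 tags) at 0.48. The vacuolar membrane channel DELTA-TIP (Pp1s101_226V6, 82, 28, 19 and 427 tags), the sugar nucleotide epimerase UGE5 (Pp1s1_372V6, 50, 24, 20 and 381 tags) and a gene with an SAP domain (Pp1s89_173V6, 28, 19, 10 and 195 tags) followed at 0.65, 0.67 and 0.69. GSTF9 stood in place 45 from this gene, at a distance of 1.29, and GSTF10 was farther still, at 1.57. With a prior count of 5 in place of 0.5, GSTF9 and GSTF10 each kept 2 of their 5 nearest genes and Pp1s126_26V6 kept 1. The nearest gene to Pp1s126_26V6 was then the peroxidase superfamily gene Pp1s37_275V6, at 0.39, and Pp1s66_60V6 was in place 4, at 0.65. Both are named above as near GSTF9 and GSTF10, so the difference in neighbours depended on the prior count.

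The profile of GSTF9 and GSTF10, with a fall past the fold at 24 h and a rise past it at 72 h against both 48 h and 0 h, was shared by few genes. Of the 6700 genes, 101 fell at 24 h against 0 h and rose at 72 h against 48 h, 445 rose at 72 h against both 48 h and 0 h, and 12 met all 3 conditions, which were set after the values were seen. The number depends on the limit of 4-fold, and GSTF9 missed it at 24 h, with 3.99-fold, when library sizes were total tags without the 10 top genes. Besides GSTF9 and GSTF10, the 2 with the most tags at 72 h were the photorespiratory alanine:glyoxylate aminotransferase AGT (Pp1s19_25V6), with 2034, 278, 817 and 5748 tags, and the unannotated Pp1s199_72V6, with 283, 10, 38 and 3939 tags.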

How the data were processed

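RNA of each time point (0, 24, 48 and 72 h) was profiled as 1 library. Per the study's methods, the authors filtered out adaptor, low quality and single-copy tags, aligned the remaining ones with Bowtie (at most 1 mismatch), dropped tags of several genes and deposited tag counts of 18800 genes. A second deposited column, headed TPM, equals tags per 100000 clean tags and served only to recover the clean tag totals of 3314401, 2743030, 2986395 and 3373054, of which 67.8%, 63.8%, 65.8% and 72.5% lay on genes. Symbols and descriptions are those of the Arabidopsis matches in the files, which 15206 genes have.

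Library sizes were scaled by TMM in edgeR 4.0.16 under R 4.3.3, with factors of 1.18, 1.33, 0.914 and 0.694, or by size factors of DESeq2 1.42.0 as an alternative. Ratios and exact conditional intervals were computed in Python 3.11.15 with scipy 1.17.1, numpy 2.4.6 and pandas 2.3.3, and plots in matplotlib 3.10.9. Intervals of a change in a ratio of 2 genes are log-normal. Genes with under 10 tags in a pair of libraries were left out of that comparison. With 1 library per time point no p-value was computed. A gene with 3 tags, the limit that a count of 0 allows, stands at 1.33, 1.71, 1.53 and 1.23 tags per 1000000.

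The 3 genes and all lists were chosen with earlier results of these data known. Entries for other proteins were removed from the lists by their annotation after values had been seen. Named genes are the 3 genes, other family genes with at least 100 tags in a library, up to 4 genes past the fold at 72 h against 48 h of each other list by tag count, and the 5 nearest profiles. Any other gene was chosen after its values were seen. On simulated libraries with counting error alone and no spread between cultures, which check the calculation and not the calls, 100% of 200 genes changed 8-fold were recovered in each of 4 comparisons of 15077, 14312, 12648 and 14375 genes, with 0 unchanged genes called, and the intervals covered the ratio that was simulated for 96.4%, 96.4%, 96.3% and 96.0% of genes. The 200 changed genes were drawn only from genes with at least 100 tags expected in both libraries before the change. Their recovery at 8-fold by a rule of 4-fold was thus nearly assured, and it says nothing of genes with fewer tags. Alternatives were other library sizes, tag minimums, folds and prior counts, and a wider family list.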

Additional observations from a re-analysis of the deposited data

How the results depend on the processing

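No paired analysis was possible because each time point had 1 library and no replicate. Of 262 alternative values, 212 kept their direction and call or, for a count of genes, lay within 1.5 times the count reported. Many of these counts were 0 under both settings. No ratio of the 3 genes reversed. The other values were marked only as kept or moved, so they had no direction that could reverse. The fall of GSTF9 at 24 h against 0 h had a log2 ratio of -2.0, just short of 4-fold, with total tags without the 10 top genes, which also left 1 falling family gene. Over clean tags, the shares of the library at 0, 24, 48 and 72 h were 0.790%, 0.182%, 0.111% and 7.0% for GSTF9, 0.0641%, 0.0143%, 0.00650% and 0.613% for GSTF10, and 0.0775%, 0.0496%, 0.0226% and 0.688% for Pp1s126_26V6. The family without the 3 genes had 5710, 6880, 3570 and 9270 tags per 1000000.

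Shares of all genes under the other rules and library sizes of this paragraph are not given. Its counts therefore show only how the family counts moved, and are not set against all genes. A fold of 2 gave 4 rising family genes at 24 h against 0 h, 1 rising and 5 falling at 48 h against 24 h, 9 rising and 2 falling at 72 h against 48 h and 9 rising at 72 h against 0 h. With no minimum of tags there were 1 rising and 3 falling at 48 h against 24 h, 11 rising at 72 h against 48 h and 7 rising and 1 falling at 72 h against 0 h, and a minimum of 30 tags gave 2 falling at 48 h against 24 h, 8 rising at 72 h against 48 h and 7 rising at 72 h against 0 h. Total tags, clean tags and total tags without the top genes each gave 3 falling at 48 h against 24 h and 5 rising at 72 h against 0 h. Adding 14 genes with a transferase domain but another description, an alternative chosen after seeing the data, gave 1 rising at 48 h against 24 h, 3 falling at 72 h against 48 h and 7 rising at 72 h against 0 h.

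With total tags, falling genes numbered 1 in glutathione synthesis at 72 h against 0 h, 1 in the peroxidases at 72 h against 48 h, and 1, 2 and 1 in glutathione reductase and the ascorbate cycle at 48 h against 24 h, 72 h against 48 h and 72 h against 0 h. The glyoxalases then had 1 rise and 4 falls at 48 h against 24 h and 1 and 2 at 72 h against 0 h, sulfate assimilation 1 rise at 48 h against 24 h and 2 falls at 72 h against 0 h, and the dismutases and catalases 0 rises at 48 h against 24 h and 1 rise and 1 fall at 72 h against 0 h. DESeq2 size factors gave 1 rise in NADPH supply at 72 h against 0 h. With a prior count of 5 the nearest profiles shared with those reported were 2, 2 and 1. The largest shift of the median log2 ratio of all genes was -0.93, with total tags at 72 h against 24 h. The cause of these differences was not tested.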
